A study of Mus musculus with 9 samples.

Results

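Stat5b binding was compared with Stat5a binding 8 h into the Th2 differentiation of mouse CD4+ T cells, by chromatin immunoprecipitation and sequencing (ChIP-seq). The libraries were a Stat5b ChIP, a Stat5a ChIP and an IgG control, the last being a mock precipitation that measures background. The 13 h and 2 rounds stages of the series have the same 3 kinds of library, which brings the total to 9, and they served for comparison. All came from CD4+ T cells described only as such. The labels refer to a publication for growth, treatment and extraction, and name no strain, genotype, age or cytokine. Each antibody and stage has 1 library, so every comparison is of those libraries and has no replicate check.

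The members are 7116 regions, obtained by joining the deposited Stat5b and Stat5a peaks of 8 h wherever they overlapped, with the mitochondrial chromosome left out. The lists of all 3 stages joined in the same way give 43766 regions. A shared region held peaks of both antibodies (1729 regions, 24.3%), a Stat5b-only region held Stat5b peaks alone (1631 regions, 22.9%), and a Stat5a-only region held Stat5a peaks alone (3756 regions, 52.8%). The peak lists carry no height or score, so levels were counted from the deposited reads, as 5′ ends of reads per 1000000 mapped reads (RPM). Positions are in the mm8 build, and regions are named by position because no gene annotation of that build was used here.

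Stat5a and Stat5b are closely related transcription factors encoded by neighbouring genes. Cytokines that signal through the common gamma chain, among them IL-2, activate JAK kinases, which phosphorylate the Stat5 proteins. These then form dimers, enter the nucleus and bind DNA at palindromic TTC…GAA elements, usually with overlapping sets of sites. In CD4+ T cells Stat5 is known for its part in the opening of the Il4 locus during Th2 differentiation and for the control of the IL-2 receptor.

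The Stat5b library held 6867047 mapped reads, the Stat5a library 3130228 and the IgG library 6241015, so 1 read was worth 0.146 RPM in Stat5b, 0.319 RPM in Stat5a and 0.160 RPM in IgG. Counting each start and strand once left 74.1% of Stat5b reads, 65.5% of Stat5a reads and 68.5% of IgG reads. Some starts carried piles of reads. At chr16:60832722-60832760 a single start held 140061 Stat5b reads, 2.04% of that library, and 78604 IgG reads, 1.26% of that library, while Stat5a had 14 reads there. In 13 regions, 11 of them Stat5b-only, 1 start held over 50% of at least 20 reads in some 8 h library, and these are called heaped. More than 20 IgG reads were found in 142 regions, 81 shared, 57 Stat5b-only and 4 Stat5a-only. Sums over regions, which rest most on such regions, are given with and without them.

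The first question was how far the lists coincide. Of 3733 joined Stat5b peaks, 2102 overlapped a Stat5a peak by at least 1 bp, which is 56.3% of the Stat5b list. Of 5491 joined Stat5a peaks, 1735 overlapped a Stat5b peak, which is 31.6% of the Stat5a list. The Stat5b peaks were narrow, with a median width of 96 bp, against 301 bp for the Stat5a peaks. In 324 cases a single Stat5a peak spanned 2 or more Stat5b peaks, up to 4. Peaks found in both lists were the wider ones in each list, with medians of 112.5 bp for Stat5b and 374 bp for Stat5a, while peaks found in 1 list alone had medians of 89 bp for Stat5b and 287 bp for Stat5a. The share of the Stat5b list was larger among strong peaks. By their whole 95% interval, distinct starts exceeded 2 times the IgG level in 401 Stat5b and 2530 Stat5a peaks. Of these, 372 Stat5b peaks (92.8%) overlapped such a Stat5a peak, and 364 Stat5a peaks (14.4%) such a Stat5b peak. The small number of such Stat5b peaks limits the Stat5a share.

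In the shared regions Stat5b was present at under 0.5 times the Stat5a level. The median level over the 1729 shared regions was 2.77 RPM for Stat5b (quartiles 1.89 and 4.22), 6.39 RPM for Stat5a (4.15 and 10.5) and 0.481 RPM for IgG (0.160 and 0.801). Neither antibody was at 0 in any shared region. The median ratio of Stat5b to Stat5a was 0.438, or 0.490 when each start and strand was counted once. The ratio was below 1 in 1672 of the 1729 shared regions. Both libraries helped to choose these regions, and a shared region needed a peak in each.

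The Stat5a-only regions had a lower but still measurable Stat5b level. Their median was 0.582 RPM for Stat5b (quartiles 0.291 and 1.02), 3.19 RPM for Stat5a (2.56 and 4.47) and 0.160 RPM for IgG (0 and 0.481). Stat5b had no read in 296 of the 3756 regions. The median ratio was 0.192, but the class was defined by a Stat5a peak without a Stat5b peak, so the choice favours a ratio below that of the shared regions.

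The Stat5b-only regions were narrow and weak. Their median was 1.02 RPM for Stat5b (quartiles 0.874 and 1.31), 0 RPM for Stat5a (0 and 0.639) and 0 RPM for IgG (0 and 0.320). The Stat5b median corresponded to 7 reads. Stat5a had no read in 818 of these 1631 regions, or 50.2%, and in that shallower library a count of 0 allows a level of up to 0.958 RPM (3 counts), close to the Stat5b median. The Stat5b level was above the Stat5a level in 88.9% of Stat5b-only regions, a direction that the choice of the class favours. With reads moved 75 bp downstream it was above in 55.4%, and in windows of 400 bp in 74.4%. The plus and minus maxima of Stat5b lay 50 bp apart in these regions, whose median width was 89 bp. A move of 75 bp thus carries many of their reads past the middle, and its part in the lower share was not tested.

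**Figure D1:**
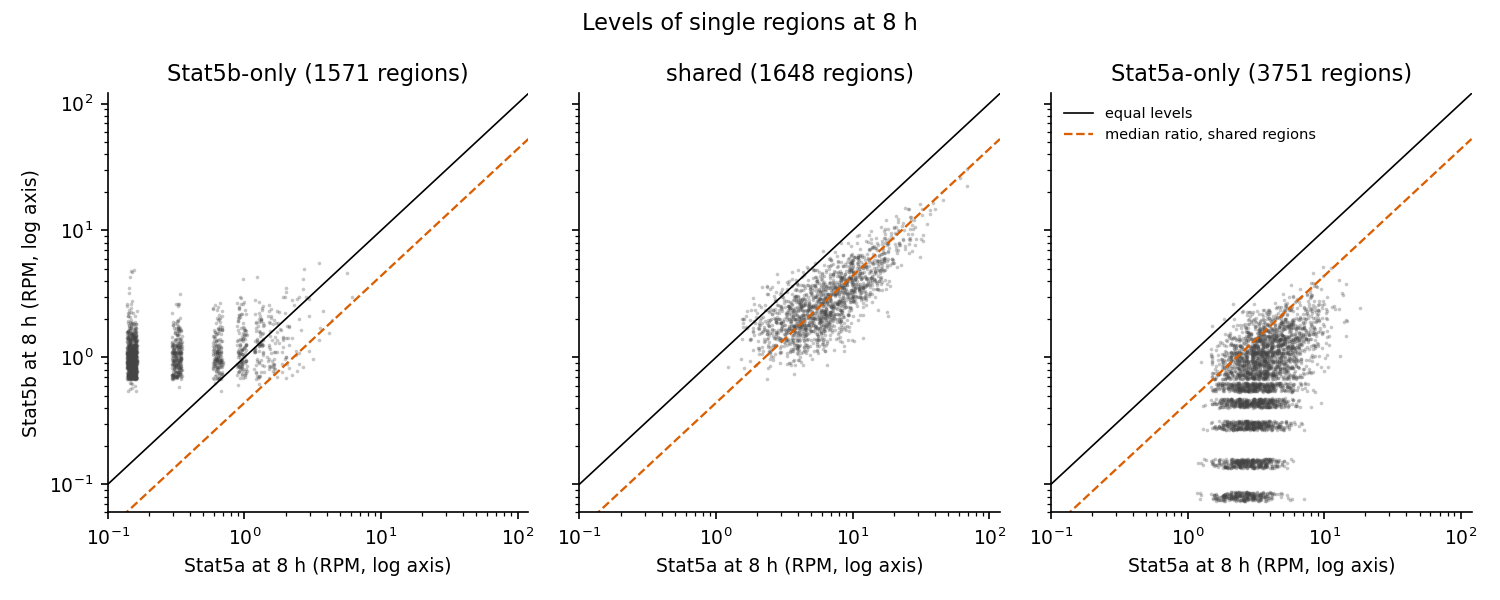
Level of Stat5b (vertical, RPM) against Stat5a (horizontal, RPM) at 8 h, 1 point per region, on log axes, for Stat5b-only, shared and Stat5a-only regions without heaped reads and with at most 20 IgG reads. Regions at 0 are drawn at the low end of the axis and points are moved slightly at random to show overlaps. The solid line marks equal levels and the dashed line the median ratio of all shared regions, 0.438, around which the shared regions spread.

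Single regions were called higher or lower in Stat5b when the 95% interval of the ratio (exact conditional, Clopper-Pearson) lay wholly above 2 or below 0.5. Counting error is all that these intervals and the floors cover, because each antibody has 1 library. Reads that carry no molecular identifier can be copies of 1 molecule, and where they are, intervals on all reads are too narrow. Of the 7116 regions, 16 were called higher in Stat5b (0.225%) and 1569 lower (22.0%). The lower calls fell in 193 shared and 1376 Stat5a-only regions, and the 16 higher calls were all in Stat5b-only regions. The peaks that define the classes came from these same libraries, so the choice favours these directions in the Stat5a-only and Stat5b-only regions. Stat5a-only regions were also 52.8% of all regions, which bears on the total of lower calls. With each start and strand counted once, 0 regions were higher (0.0%) and 510 lower (7.17%), 30 of these shared and 480 Stat5a-only. For background, the IgG libraries of 13 h and 8 h, in that order, gave 22 higher (0.309%) and 27 lower (0.379%) calls over the same regions, or 1 higher (0.0141%) and 5 lower (0.0703%) on distinct starts. The 16 higher calls of Stat5b over Stat5a were fewer than the 22 between IgG libraries, but the pairs are unlike. The Stat5a library was shallower than either IgG library, and the median ratio of Stat5b to Stat5a over all regions was 0.342. After scaling by the median shared ratio, 215 regions were called higher and 126 lower.

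The 16 regions called higher in Stat5b shared features that the call did not use. They had a median width of 50 bp, and every one of them held IgG reads. After 6 heaped regions were left out, 10 remained, between 43 and 194 bp wide. These 10 had 18 to 33 Stat5b reads, no Stat5a read and 2 to 16 IgG reads, with a median of 3.35 RPM for Stat5b and 1.36 RPM for IgG. Their Stat5b reads came from a median of 8 distinct starts. The 4 with at least 30 Stat5b reads lay on 4 chromosomes. The first, chr2:60906252-60906301, had 4.81 RPM for Stat5b (33 reads), 0 RPM for Stat5a and 1.28 RPM for IgG (8 reads), which is at least 5.01-fold higher in Stat5b than a floor of 3 Stat5a counts. At 13 h the same region had 4.09 RPM for Stat5b, 4.45 RPM for Stat5a and 1.46 RPM for IgG, so Stat5a had reads there at the later stage. The others were chr7:87714048-87714096 (4.66 RPM for Stat5b, 0 RPM for Stat5a and 0.961 RPM for IgG), chr8:41013504-41013546 (4.51, 0 and 1.44 RPM in the same order) and chr15:20236959-20237039 (4.51, 0 and 1.76 RPM). All 4 had IgG reads, and none was called on distinct starts. The region on chromosome 15 had no read in the 13 h libraries or in the ChIP libraries of 2 rounds, and 10 IgG reads after 2 rounds. With reads moved 75 bp downstream, 1 region in all was called higher, and 6 Stat5b-only regions were called lower.

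Against IgG the antibodies separated in the same direction. Over all 7116 regions Stat5b was called above IgG in 1014 (14.2%) and Stat5a in 4199 (59.0%), or 547 (7.69%) for Stat5b and 2526 (35.5%) for Stat5a on distinct starts. In shared regions Stat5b was above IgG in 770 (44.5%) and Stat5a in 1457 (84.3%). In Stat5b-only regions Stat5b was above IgG in 133 (8.15%) and Stat5a in 19 (1.16%), while in Stat5a-only regions the counts were 111 (2.96%) for Stat5b and 2723 (72.5%) for Stat5a. Each list came from its own library, which favours an excess over IgG there. On distinct starts 12 Stat5b-only regions were called above IgG for Stat5b, so at this depth most could not singly be placed above 2 times IgG.

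Sums over classes depended on the regions rich in IgG reads. They are given first for regions without heaped reads and with at most 20 IgG reads, a limit set after seeing the data that also holds down the IgG sum. The 1648 such shared regions held 5491 RPM of Stat5b, 13029 RPM of Stat5a and 892 RPM of IgG, which is 6.16 times IgG for Stat5b and 14.6 times IgG for Stat5a. The 3751 Stat5a-only regions held 2904 RPM of Stat5b, 13804 RPM of Stat5a and 1042 RPM of IgG, so Stat5b was at 2.79 times IgG in regions where it had no listed peak. The 1571 Stat5b-only regions held 1828 RPM of Stat5b, 643 RPM of Stat5a and 309 RPM of IgG, so Stat5a was at 2.08 times IgG where it had no listed peak. Without heaps but with regions rich in IgG reads kept, shared regions were at 1.75 times IgG for Stat5b and 3.33 times for Stat5a, Stat5a-only regions at 1.89 times for Stat5b and 7.28 times for Stat5a, and Stat5b-only regions at 2.82 times for Stat5b and 1.36 times for Stat5a. With all regions, shared regions were at 1.75 times IgG for Stat5b and 3.67 times for Stat5a, and Stat5a-only regions at 1.89 times for Stat5b and 7.28 times for Stat5a. The Stat5b-only sums over all regions were 24266 RPM for Stat5b, 1121 RPM for Stat5a and 14575 RPM for IgG, which put Stat5b at 1.66 times and Stat5a at 0.0769 times IgG.

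The shared regions with the most distinct starts above IgG were led by chr16:23903675-23904702, with 28.7 RPM for Stat5b (197 reads), 66.8 RPM for Stat5a (209 reads) and 2.56 RPM for IgG. The ratio was 0.430 (95% interval 0.352 to 0.525), which did not meet the rule for a lower call. The second, chr1:60990203-60991530, had 23.0 RPM for Stat5b, 72.8 RPM for Stat5a and 2.56 RPM for IgG, a ratio of 0.316 (0.256 to 0.389), and was called lower. At chr9:107154423-107155335 the levels were 24.03 RPM for Stat5b, 60.7 RPM for Stat5a and 2.24 RPM for IgG, a ratio of 0.396 (0.319 to 0.490), also called lower. All 3 stood well above IgG for both antibodies. Of the 10 strongest, 3 were called lower and none higher on all reads, none was called on distinct starts, and their ratios ran between 0.316 and 0.836. The highest ratios belonged to a pair of regions rich in IgG reads. At chr2:98466999-98468251 there were 1021 RPM for Stat5b, 1221 RPM for Stat5a and 1076 RPM for IgG, and at chr11:3092539-3094387 there were 63.2 RPM for Stat5b, 77.6 RPM for Stat5a and 36.1 RPM for IgG. The other 8 had between 14.6 and 28.7 RPM for Stat5b and between 31.9 and 72.8 RPM for Stat5a.

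Several strong regions lay in groups with gaps under 10 kb. The regions without heaps formed 5160 groups, 4052 of them with a single region and 95 with 5 or more. A group of 10 regions at chr9:107152541-107171432 (6 shared, 4 Stat5a-only) held 68.7 RPM of Stat5b, 165 RPM of Stat5a and 8.81 RPM of IgG in sum, a ratio of 0.418 (0.368 to 0.474). A group of 14 at chr2:11534631-11573759 (12 shared, 1 Stat5b-only, 1 Stat5a-only) held 64.2 RPM of Stat5b, 171 RPM of Stat5a and 9.61 RPM of IgG, a ratio of 0.375 (0.330 to 0.426). At chr1:108426746-108444932, 7 regions held 41.4 RPM of Stat5b, 118 RPM of Stat5a and 4.65 RPM of IgG, a ratio of 0.350 (0.299 to 0.410). The intervals of the last pair of groups lay below 0.438, the median of single shared regions, which is an unlike measure. The group ratios are of sums and include Stat5a-only regions. Both intervals hold 0.406, the ratio of sums in the strongest of 5 parts of the shared regions, described below. Among the 5 strongest groups were also a pair rich in IgG reads, chr2:98462994-98468251 with a ratio of 0.882 and chr9:2999924-3038532 with a ratio of 0.707. A group of 12 at chr14:121041077-121097186, of which 10 regions were Stat5a-only, held 22.1 RPM of Stat5b, 77.9 RPM of Stat5a and 8.33 RPM of IgG, a ratio of 0.284 (0.230 to 0.349).

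Among Stat5a-only regions, chr3:131189651-131190543 had 2.48 RPM for Stat5b (17 reads), 12.5 RPM for Stat5a (39 reads) and 0.160 RPM for IgG (1 read), a ratio of 0.199 (0.105 to 0.360). The region chr15:62662799-62663310 had 2.62 RPM for Stat5b, 17.3 RPM for Stat5a and 1.60 RPM for IgG, a ratio of 0.152 (0.0839 to 0.263). Both were called lower, on all reads and on distinct starts. Of the 10 strongest Stat5a-only regions 7 were called lower, and 2 others were rich in IgG reads. Among called regions without heaps and with at least 30 Stat5a reads, the lowest ratio was at chr7:45549196-45549618, with 0.874 RPM for Stat5b (6 reads), 11.2 RPM for Stat5a (35 reads) and 0.320 RPM for IgG (2 reads), a ratio of 0.0781 (0.0269 to 0.188). The 10 such regions with the lowest ratios had ratios of 0.0781 to 0.123, and 2 of them were shared, for example chr2:101482217-101482629 with 2.18 RPM for Stat5b, 17.9 RPM for Stat5a and 0.160 RPM for IgG. All 10 were found again in the Stat5b list of 13 h.

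The strongest Stat5b-only regions were weaker than either of the other sets. The region chr11:33947037-33947245 had 3.06 RPM for Stat5b (21 reads), 1.28 RPM for Stat5a (4 reads) and 0.160 RPM for IgG (1 read), a ratio of 2.39 (0.807 to 9.59). The region chr13:21374186-21374383 had 4.08 RPM for Stat5b, 1.28 RPM for Stat5a and 0.481 RPM for IgG, a ratio of 3.19 (1.12 to 12.5). These were the highest ratios among the 10 strongest, which ran between 0.599 and 3.19 with a median of 1.48. The first by rank, chr11:3045219-3045453, was rich in IgG reads and had more Stat5a than Stat5b. Its levels were 6.70 RPM for Stat5b, 11.2 RPM for Stat5a and 3.85 RPM for IgG, a ratio of 0.599 (0.378 to 0.958). None of the 10 strongest was called higher, and in 3 of them IgG had more than 20 reads. For 7 of the 10 a Stat5b peak was listed again at 13 h, and for 6 a Stat5a peak was listed there, so that most were places where both antibodies later had peaks.

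The spread of the ratio among shared regions was described after scaling. Scaling the libraries by the median shared ratio, a shift of -1.19 on the log2 scale, left 5 shared regions higher and 1 lower by the 2-fold rule, of 1728 without heaps. The 95% interval of the scaled ratio lay off 1 in 12.4% of these regions on all reads and in 2.20% on distinct starts. The middle 80% of unscaled ratios ran between 0.262 and 0.772, and the median shared region had 19 Stat5b and 20 Stat5a reads, so counting error widens this range. Over all 7116 regions this scaling, which shifts every region alike, gave 215 higher and 126 lower. Scaling by nuclear reads outside the regions gave 16 higher and 1565 lower, close to the calls on all mapped reads. Whether the precipitations differed in yield or the factors in occupancy cannot be told apart from these libraries.

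Read positions by strand are given as a description, since the peaks that define the classes were called from these reads. Around a bound site, plus-strand reads start upstream and minus-strand reads downstream. In shared regions the plus and minus maxima of distinct starts lay 100 bp apart for Stat5b and 110 bp apart for Stat5a, against 50 bp for IgG. The level within 50 bp of the middle was 8.12 times the level 400 to 500 bp away for Stat5b, 10.4 times for Stat5a and 2.43 times for IgG. In Stat5a-only regions the distances were 130 bp for Stat5b and 140 bp for Stat5a, and the Stat5b level at the middle was 2.79 times its edge level, against 1.51 times for IgG. In Stat5b-only regions the distances were 50 bp for Stat5b, 40 bp for Stat5a and 30 bp for IgG, and the middle was 11.6 times the edge for Stat5b, 3.23 times for Stat5a and 3.13 times for IgG. These regions were chosen by their own Stat5b reads and have a median width of 89 bp, and the part of that choice in the short distance was not tested.

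**Figure D2:**
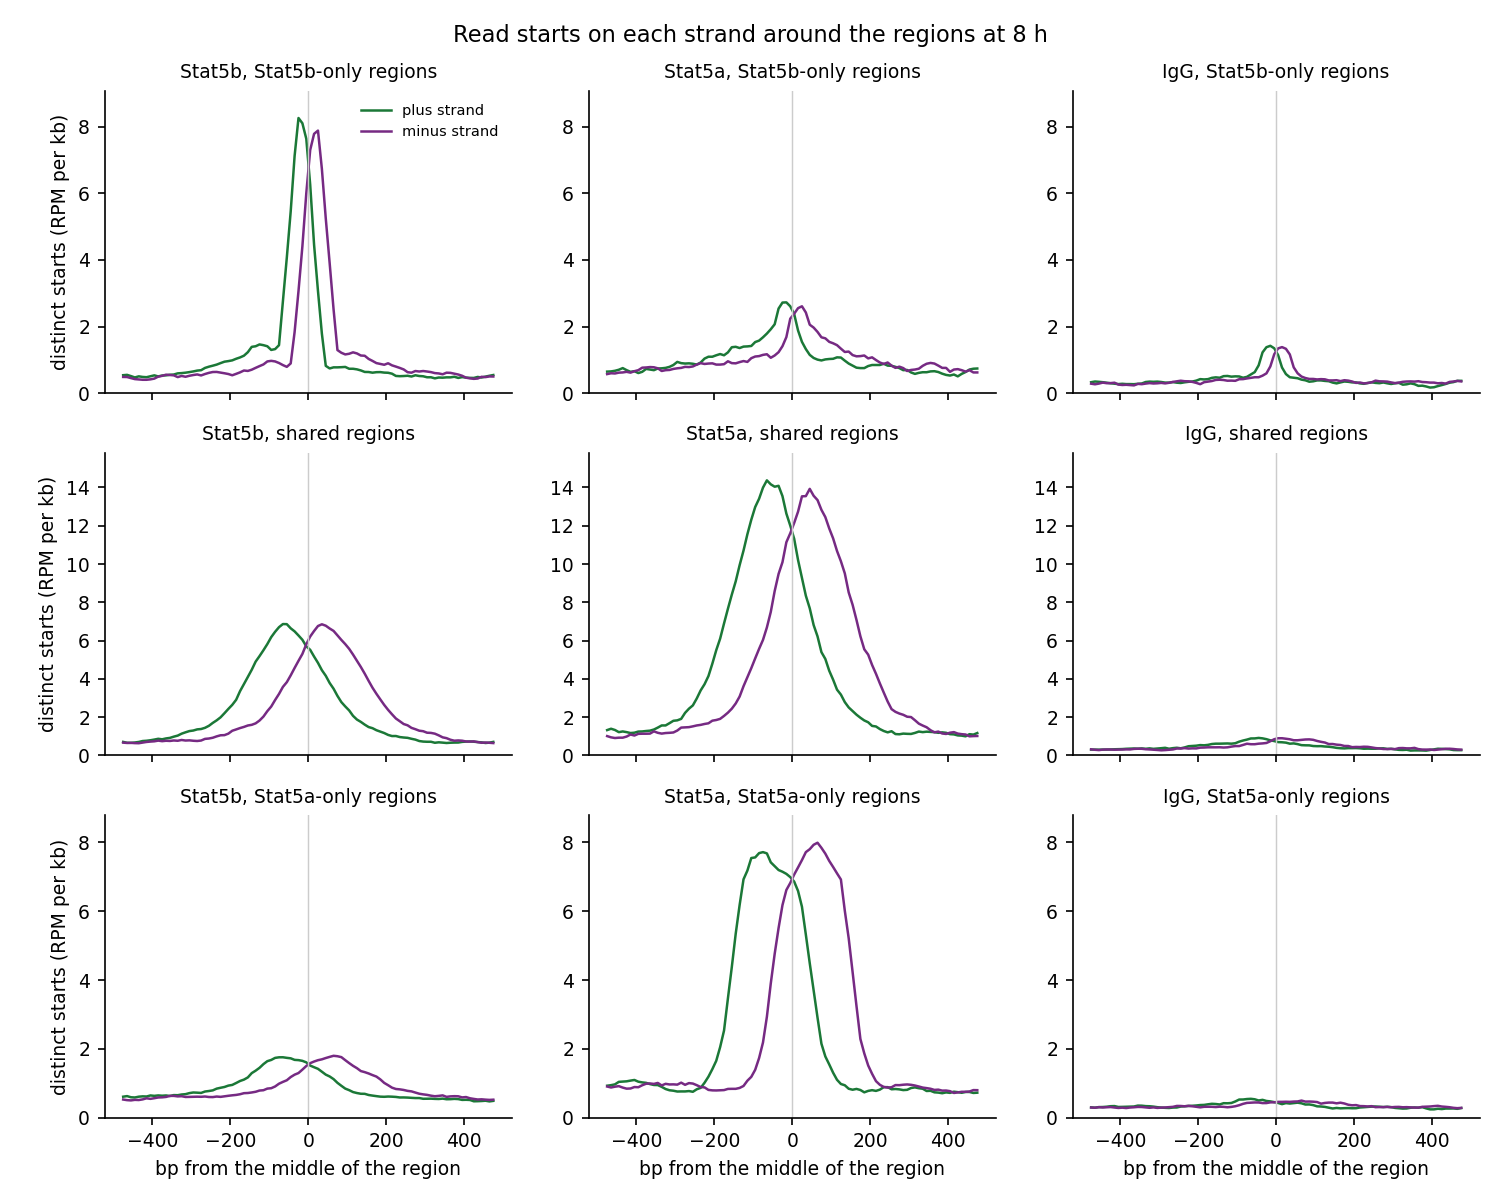
Distinct read starts on the plus and minus strand (RPM per kb, in bins of 10 bp averaged over 50 bp) by distance from the middle of the region, for Stat5b, Stat5a and IgG at 8 h in Stat5b-only, shared and Stat5a-only regions without heaps and with at most 20 IgG reads. The plus and minus maxima are 100 bp apart for Stat5b and 110 bp apart for Stat5a in shared regions, and 50 bp apart for Stat5b in Stat5b-only regions.

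The middles of the reads of both antibodies were set side by side in shared regions. In the 1628 shared regions with starts of both antibodies on both strands (no heaps, at most 20 IgG reads), the middle of Stat5b starts minus the middle of Stat5a starts had a median of 0.845 bp, with quartiles of -21.9 and 23.3 bp. In 1309 of them, 80.4%, the middles were within 50 bp. Starts of both antibodies were counted within the same borders, which limits how far apart their middles can lie. The distance of single-list regions from peaks of the other list was also counted, with no share for other places to set beside it. Of Stat5b-only regions, 137 lay within 1 kb and 419 (25.7%) within 10 kb of a Stat5a peak, and of Stat5a-only regions 261 lay within 1 kb and 942 (25.1%) within 10 kb of a Stat5b peak.

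Peak lists of the later stages, which had no part in choosing the classes, held most shared regions again. A Stat5b peak of 13 h covered 92.8% of shared regions, 37.5% of Stat5b-only and 53.0% of Stat5a-only regions. A Stat5a peak of 13 h covered 84.6%, 27.7% and 38.4% of the classes in that order. Stat5a-only regions thus had later Stat5b peaks more often than later Stat5a peaks, and after 2 rounds 68.3% of them had a Stat5b peak and 33.1% a Stat5a peak. The lists differ in length, so such shares are not a measure of level. At least 1 of the 4 later lists held 97.0% of shared, 59.3% of Stat5b-only and 77.8% of Stat5a-only regions.

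**Figure D3:**
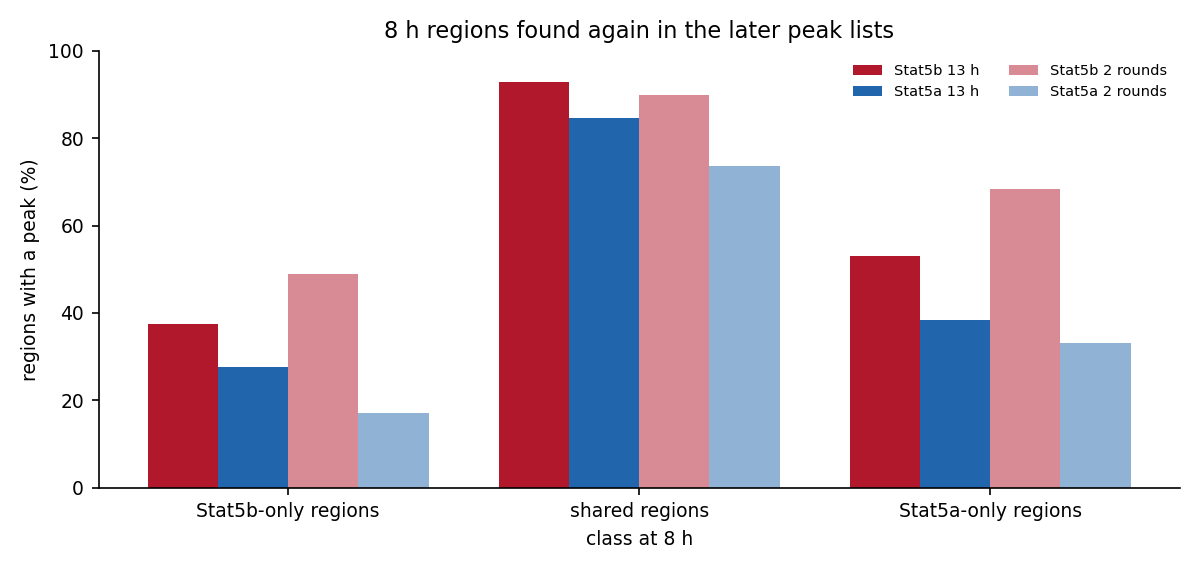
Percent of regions of each 8 h class (Stat5b-only, shared, Stat5a-only) that overlap a peak of the Stat5b and Stat5a lists at 13 h (full colour) and after 2 rounds (pale). Shared regions reach 92.8% for Stat5b at 13 h, and Stat5a-only regions reach 68.3% for Stat5b after 2 rounds.

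Recurrence went with the level of the antibody that had no peak at 8 h. In Stat5a-only regions the Stat5a and IgG levels were also higher in those found again, which were wider (median 294 against 268 bp). In 947 Stat5b-only regions found in a later list (without heaps and with at most 20 IgG reads) the mean levels at 8 h were 1.19 RPM for Stat5b, 0.506 RPM for Stat5a and 0.180 RPM for IgG, so Stat5a was at 2.81 times IgG (95% interval 2.60 to 3.04). In 624 found in none, the means were 1.12 RPM for Stat5b, 0.264 RPM for Stat5a and 0.222 RPM for IgG, and Stat5a was at 1.19 times IgG (1.06 to 1.33). The Stat5b level itself differed little between these sets. In 2920 Stat5a-only regions found again, the means were 0.884 RPM for Stat5b, 3.90 RPM for Stat5a and 0.306 RPM for IgG, with Stat5b at 2.89 times IgG (2.80 to 2.98). In 831 found in none, they were 0.388 RPM for Stat5b, 2.92 RPM for Stat5a and 0.179 RPM for IgG, with Stat5b at 2.17 times IgG (2.01 to 2.35).

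In the same regions the order of the antibodies was the other way round after 8 h. The median over shared regions at 13 h was 5.53 RPM for Stat5b, 3.73 RPM for Stat5a and 0.532 RPM for IgG, a median ratio of 1.47, and after 2 rounds 8.75 RPM for Stat5b, 4.51 RPM for Stat5a and 0.518 RPM for IgG, a median ratio of 1.91. At 8 h it had been 0.438. In Stat5a-only regions the median ratio was 0.192 at 8 h, 1.38 at 13 h and 2.00 after 2 rounds, with 1.44 RPM for Stat5b and 1.08 RPM for Stat5a at 13 h. The 8 h libraries chose this class and favour a low ratio at 8 h, so a rise at the later stages follows in part from the choice. Of all 7116 regions, 111 were called higher in Stat5b at 13 h (1.56%) and 14 lower (0.197%), and after 2 rounds 811 were higher (11.4%) and 13 lower (0.183%). In Stat5b-only regions Stat5b was above Stat5a in 53.1% and below it in 34.7% at 13 h. After 2 rounds it was above in 59.7% and below in 24.6%. The remaining regions had no read of either antibody at that stage. At 8 h it was above in 88.9% and below in 11.1%, a direction that the choice of the class favours, so the shares are not alike. Reads of 24 bp made up 38.0% of Stat5a reads at 13 h and 54.5% after 2 rounds, and none in Stat5b. On reads of 25 bp alone the shared median at 13 h was 1.18.

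**Figure D4:**
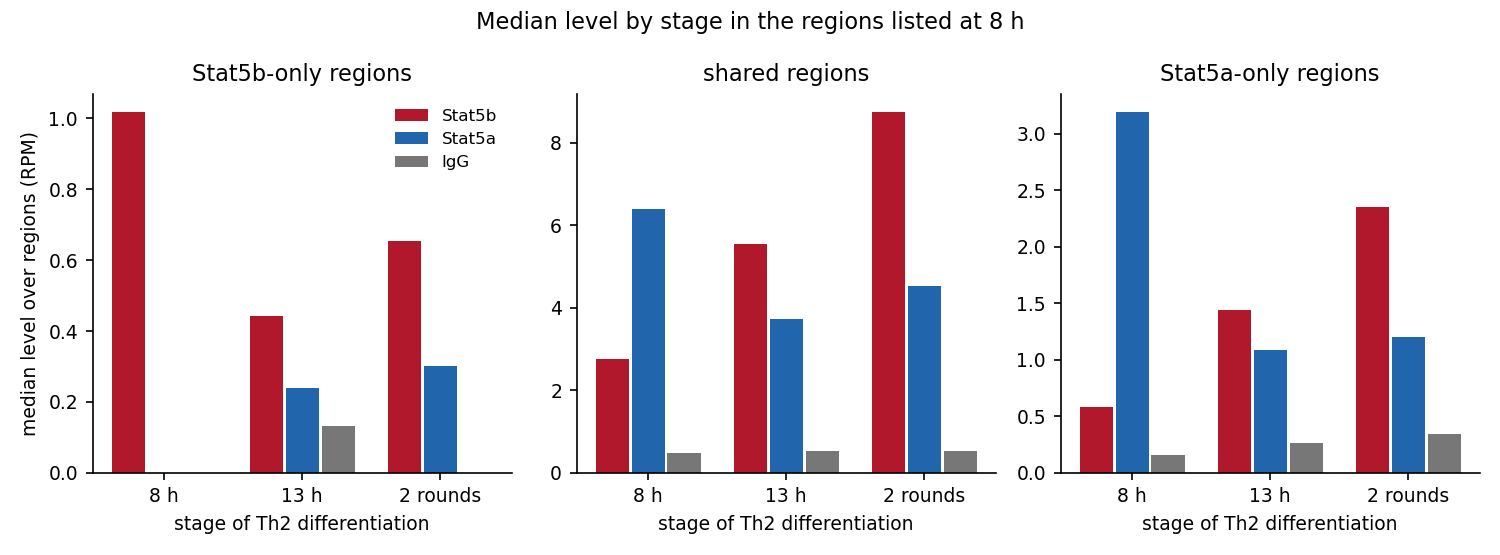
Median level over the regions of each 8 h class (RPM, bars from 0) for Stat5b, Stat5a and IgG at 8 h, 13 h and after 2 rounds, 1 library per bar. In shared regions Stat5b has 2.77 RPM and Stat5a 6.39 RPM at 8 h, while Stat5b has 5.53 RPM and Stat5a 3.73 RPM at 13 h.

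Regions called lower in Stat5b at 8 h had ratios at 13 h close to those of the rest of their class. Of the 193 shared regions called lower, 89.6% had a ratio above 1 at 13 h and the median ratio there was 1.46, against 83.7% and 1.47 for the 1536 shared regions without a call. Of the 1376 Stat5a-only regions called lower, 66.1% had a ratio above 1 at 13 h with a median of 1.43, against 70.0% and 1.38 for the 2380 without a call. After 2 rounds the shared medians were 1.71 for called and 1.97 for other regions, with 89.6% and 86.2% above 1. The Stat5a-only medians were then 1.89 and 2.06 in the same order, with 74.7% and 81.5% above 1. The strongest shared region, at chr16:23903675-23904702, had 76.1 RPM for Stat5b and 48.7 RPM for Stat5a at 13 h, and 198 RPM for Stat5b and 75.7 RPM for Stat5a after 2 rounds, where it was called higher. At chr9:107154423-107155335 the levels were 71.0 RPM for Stat5b and 53.1 RPM for Stat5a at 13 h, and 235 RPM for Stat5b and 99.3 RPM for Stat5a after 2 rounds. All of the 10 strongest shared regions had a ratio above 1 at 13 h, and 8 of 10 after 2 rounds. The exceptions after 2 rounds were chr8:84398632-84399529, with 43.1 RPM for Stat5b and 55.98 RPM for Stat5a, and the IgG-rich chr2:98466999-98468251, with 799.8 RPM for Stat5b and 1057 RPM for Stat5a.

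The ratio at 8 h moved only a little with the strength of a shared region. Shared regions were divided into 5 equal parts by their mean level of distinct starts in the 4 later ChIP libraries. In the weakest part the mean levels at 8 h were 1.87 RPM for Stat5b, 4.07 RPM for Stat5a and 0.324 RPM for IgG, a ratio of 0.460 (95% interval 0.441 to 0.480). In the strongest part they were 6.09 RPM for Stat5b, 15.0 RPM for Stat5a and 0.918 RPM for IgG, a ratio of 0.406 (0.397 to 0.415). The other classes approached the shared regions as the later level went up. From the weakest to the strongest part the ratio in Stat5a-only regions went up from 0.109 to 0.257, and in Stat5b-only regions it went down from 17.4 to 1.74. In the weakest part of the Stat5b-only regions Stat5b had 1.05 RPM, Stat5a 0.0605 RPM and IgG 0.142 RPM, so that Stat5a was under IgG there.

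**Figure D5:**
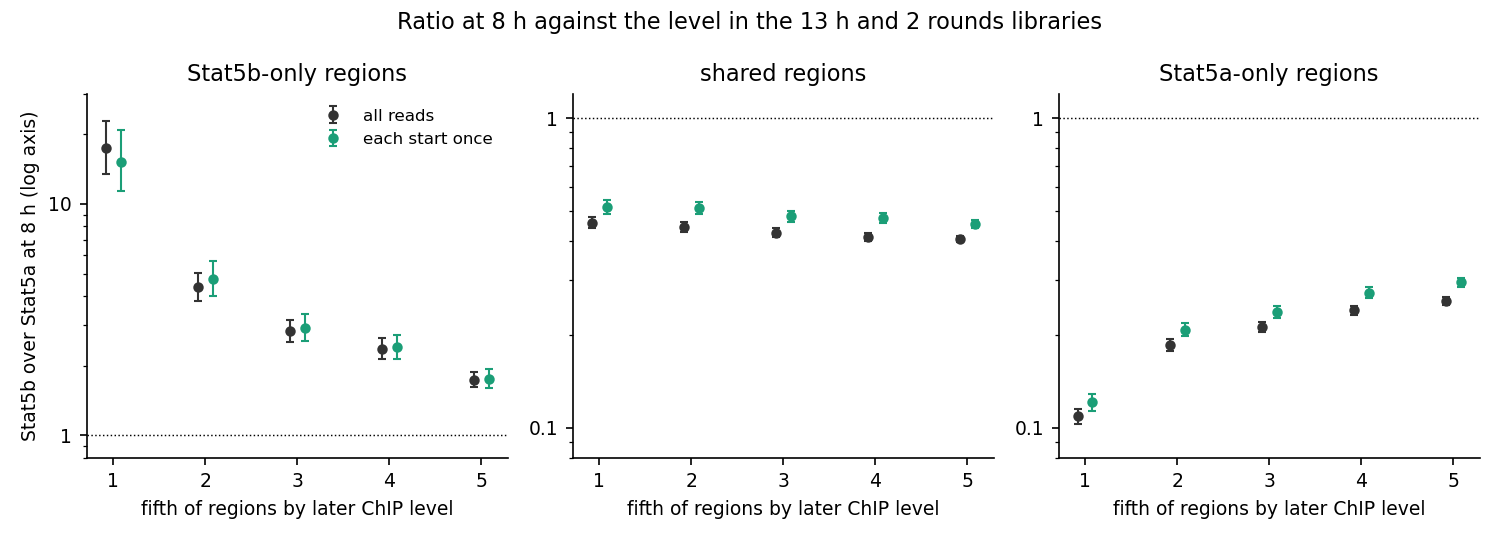
Ratio of summed Stat5b to summed Stat5a levels at 8 h (log axis, different ranges in the panels) in 5 equal parts of the Stat5b-only, shared and Stat5a-only regions ordered by their level in the 13 h and 2 rounds ChIP libraries, on all reads and with each start counted once. Bars are 95% intervals for counting error and the dotted line marks equal levels. Shared regions stay between 0.460 and 0.406 on all reads, while Stat5b-only regions go from 17.4 to 1.74.

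Regions that had a peak later but none in either 8 h list were compared as well. Leaving out the 8 h peaks takes away more Stat5a peaks (5491) than Stat5b peaks (3733). Of 16893 such regions at 13 h, 4 were called higher in Stat5b than in Stat5a at 8 h (0.0237%) and 239 lower (1.41%), and of 28402 after 2 rounds, 4 were higher (0.0141%) and 506 lower (1.78%). In 2421 regions with both a Stat5b and a Stat5a peak at 13 h the mean levels at 8 h were 1.01 RPM for Stat5b, 1.61 RPM for Stat5a and 0.560 RPM for IgG, a ratio of 0.627 (0.612 to 0.642). In 5270 regions in both lists after 2 rounds they were 0.814 RPM for Stat5b, 1.32 RPM for Stat5a and 0.540 RPM for IgG, a ratio of 0.615 (0.604 to 0.626). In 6265 regions with a Stat5b peak alone at 13 h the ratio was 0.650, and in 8207 with a Stat5a peak alone it was 0.744. Stat5b was thus below Stat5a at 8 h also in places chosen by later Stat5b peaks. Without the IgG level the ratios were 0.428 for both lists at 13 h and 0.349 after 2 rounds.

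By chromosome, the X chromosome had the largest share of Stat5b-only regions, 54 of 140 (38.6%), and the smallest share of shared regions, 18 (12.9%). On the autosomes Stat5b-only regions made up between 16.2% (chromosome 10) and 30.1% (chromosome 18). The X chromosome held 5.06% of Stat5b reads, 5.14% of Stat5a reads and 5.34% of IgG reads.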

How the data were processed

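The deposited files are lists of mapped reads (start, end and strand of each read) and, for the ChIP libraries, lists of peaks (start and end), deposited by the authors in bp of mm8, per the file names, with no score. These positions are the only values. For the aligner, the peak caller and the part of IgG in calling, nothing is given in the sources used here. Read length was 25 bp, and the 24 bp reads of Stat5a and IgG at both later stages were moved by 1 bp. Peaks overlapping by 1 bp were joined. Reads were counted at the 5′ end, per 1000000 reads of the library, or per 1000000 distinct starts. Ratios carry exact conditional 95% intervals. Medians of ratios leave out regions at 0 in both libraries. Groups came from the labels, with 1 library each, so no p-value is given. Named regions are the 10 strongest of each class on distinct starts above IgG without heaps, called regions with at least 30 reads and the largest ratios (up to 10 per direction), and the 3 largest heaps. Members and rules were chosen with earlier results of these data known. No gene list was used, since no mm8 annotation was at hand, so genes and sequences were not analysed here. The rule for calls was run first on simulated Poisson counts of the 8 h depths. Tools were scipy 1.17.1, numpy 2.4.6 and pandas 2.3.3 under Python 3.11.15, with figures drawn in matplotlib 3.10.9.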

Additional observations from a re-analysis of the deposited data

Results flagged for a closer look

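The direction of Stat5b against Stat5a differed between stages in the same regions. In shared regions the median ratio was 0.438 at 8 h, 1.47 at 13 h and 1.91 after 2 rounds. In Stat5a-only regions it was 0.192 at 8 h, 1.38 at 13 h and 2.00 after 2 rounds, but the choice of this class at 8 h favours a low ratio there. Each stage has 1 library per antibody, so the difference between stages was not tested.

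The mitochondrial chromosome, which the region counts leave out, held more reads in the ChIP libraries of 8 h than in their control, with 627 RPM in Stat5b, 675 RPM in Stat5a and 292 RPM in IgG.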

How the results depend on the processing

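With each start and strand counted once, 0 regions were called higher and 510 lower, the shared median was 0.490, the Stat5a-only median 0.220, and Stat5b was above Stat5a in 91.8% of Stat5b-only regions. Stat5b was then called above IgG in 12 Stat5b-only regions (133 on all reads) and Stat5a in 1316 Stat5a-only regions (2723). At 13 h the shared median was then 1.42, and in regions of both later lists without an 8 h peak the ratio was 0.693 for 13 h and 0.679 for 2 rounds. Scaling by the shared median, which sets that median to 1.0, gave 215 higher and 126 lower, a Stat5a-only median of 0.438 and 99.3% of Stat5b-only regions above. Reads moved 75 bp downstream gave 1 higher call, 55.4% of Stat5b-only regions above, 48 of them above IgG, and a Stat5a-only median of 0.199. Thinning to the Stat5a depth gave 664 lower calls, 80.5% above, a Stat5a-only median of 0.176, and Stat5b above IgG in 295 shared (770) and 5 Stat5b-only regions and Stat5a in 1372 Stat5a-only regions. Windows of 400 bp gave medians of 0.456 (shared) and 0.228 (Stat5a-only), 74.4% above, and 241 Stat5b-only regions above IgG. Without heaped regions, and also with at most 20 IgG reads (added after seeing the data), 10 were higher. A limit of 1.5-fold gave 32 higher and 2619 lower. At least 20 reads together left 566 lower, 68.6% above and a Stat5a-only median of 0.256. Pooled IgG put 768 Stat5b-only regions above it. For lists, 50% of both peaks gave 9.67% of Stat5b and 6.57% of Stat5a peaks shared, peaks of 400 bp 53.7% of Stat5b peaks, the upper 50% of each list 61.5% and 41.2%, and peaks above 2 times IgG 92.8% and 14.4%. Reads of 25 bp alone gave 1.18 (shared) and 1.14 (Stat5a-only) at 13 h, and 2.22 (Stat5a-only) after 2 rounds. Apart from the split of calls, no direction turned round in 157 alternatives over 31 results, and 59 moved beyond counting error or 1.5 times. The split turned round under median scaling, and within Stat5b-only regions under the move of 75 bp (1 higher, 6 lower). Of 395 alternatives over 46 named regions, 35 lost and 2 gained a call. The cause was not tested. No paired analysis was possible because each antibody and stage has 1 library, and for the same reason no replicate could be left out. A Stat5a count of 0 allows up to 0.958 RPM, which limits what single Stat5b-only regions can show.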
